A study of Mus musculus with 40 samples.

Results

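The genes described are 10 genes of fatty acid synthesis in mouse brown adipose tissue, the heat-producing fat: Fasn, Acly, Acaca, Acacb, Me1, Scd1, Elovl6, Thrsp, Srebf1 and Mlxipl. They were found by matching the Ensembl identifiers of the counts table to gene symbols, and are 10 of its 52636 genes. All 10 passed the filter on low counts that left 17079 genes for testing. The tissue came from 40 male C57BL/6 mice, which the labels put at 10 weeks of age to 14 weeks in one place and to 12 weeks in another, and each mouse gave 1 library of bulk RNA. Under a title on Notch signalling in the thyroid, the study dosed mice once, into the abdomen, with antibody and collected the tissue later. Control mice (numbers 1 to 5 in the titles) had 40 mg/kg of an antibody to ragweed as isotype control. Jag antibody mice (numbers 6 to 10) had blocking antibodies at 20 mg/kg each to 2 ligands of Notch receptors, Jag1 and Jag2. Both kinds of mice were collected 15 h, 5 d and 7 d after the dose, 5 mice to a group. In 2 further groups collected at 7 d, 5 control and 5 Jag antibody mice also had thyroxine (T4, 1 ug per g of body weight) and T3 (0.05 ug per g) daily from day 2.

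De novo fatty acid synthesis builds palmitate from carbon of glucose or acetate. Citrate exported from mitochondria is split to acetyl-CoA by ATP citrate lyase (Acly), acetyl-CoA is carboxylated to malonyl-CoA by acetyl-CoA carboxylase 1 (Acaca), and fatty acid synthase (Fasn) joins these units with NADPH that malic enzyme (Me1) and the pentose phosphate pathway supply. Elovl6 lengthens the palmitate and Scd1 puts in a double bond, while the carboxylase encoded by Acacb sits at mitochondria and makes the malonyl-CoA that restrains fatty acid entry. The genes are known targets of SREBP-1c, encoded by Srebf1, and ChREBP, encoded by Mlxipl, and Thrsp (Spot 14) is a thyroid hormone-responsive gene of lipogenic tissues. In brown fat, synthesis of fatty acids is known to run beside their oxidation, and thyroid hormone to act on both.

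The bases before the transcription starts of 5 of the genes are printed because Fasn, Acly, Acaca and Me1 had the largest antibody differences at 5 d and Thrsp the largest hormone difference in control mice. RefSeq windows (GRCm38.p6), each reaching from 250 bases before a start to 50 after it, were at hand for 9 of the 10 genes, in 13 windows, with none for Scd1. Only the 250 bases before the start are printed, 5′ to 3′ on the gene's strand, with matches to the searched motifs in capitals. The windows are chr11:120824548-120824797 on the minus strand for Fasn, chr11:100528001-100528250 (minus) for Acly, chr9:86695915-86696164 (minus) for Me1, chr7:97417551-97417800 (minus) for Thrsp and chr11:84195188-84195437 (plus) for Acaca, whose RefSeq start lies inside the gene as GENCODE draws it.
Fasn: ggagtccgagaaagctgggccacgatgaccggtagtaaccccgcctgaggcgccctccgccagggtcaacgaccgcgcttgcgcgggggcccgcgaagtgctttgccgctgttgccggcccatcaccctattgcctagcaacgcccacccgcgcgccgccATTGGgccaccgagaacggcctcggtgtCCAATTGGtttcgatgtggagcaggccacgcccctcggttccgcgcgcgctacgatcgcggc
Acly: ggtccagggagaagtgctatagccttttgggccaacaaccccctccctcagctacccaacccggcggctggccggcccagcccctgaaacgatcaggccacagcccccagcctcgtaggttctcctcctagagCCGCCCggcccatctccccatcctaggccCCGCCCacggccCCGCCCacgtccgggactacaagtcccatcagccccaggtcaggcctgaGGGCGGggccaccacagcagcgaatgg
Me1: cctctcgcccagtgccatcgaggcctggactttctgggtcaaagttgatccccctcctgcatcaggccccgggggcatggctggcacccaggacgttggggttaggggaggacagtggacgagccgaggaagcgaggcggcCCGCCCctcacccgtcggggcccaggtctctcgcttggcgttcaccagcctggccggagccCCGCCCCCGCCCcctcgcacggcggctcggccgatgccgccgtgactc
Thrsp: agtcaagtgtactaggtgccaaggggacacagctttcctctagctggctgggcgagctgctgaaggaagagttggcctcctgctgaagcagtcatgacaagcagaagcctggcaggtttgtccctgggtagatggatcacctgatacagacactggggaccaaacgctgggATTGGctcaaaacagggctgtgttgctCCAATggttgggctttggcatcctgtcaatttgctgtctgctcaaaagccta
Acaca: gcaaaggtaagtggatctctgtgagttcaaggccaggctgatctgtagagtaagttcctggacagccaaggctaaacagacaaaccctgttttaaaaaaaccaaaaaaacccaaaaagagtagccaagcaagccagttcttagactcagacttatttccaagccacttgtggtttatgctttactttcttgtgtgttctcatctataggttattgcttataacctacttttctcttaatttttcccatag
In these lines ATTGG and CCAAT are the 2 orientations of the NF-Y box, and GGGCGG and CCGCCC those of the Sp1 box. Both strands of whole windows were searched for 7 motifs. CCAAT was in 8 of the 13 windows, of 7 genes, against 37.4% of all 32851 RefSeq windows, and GGGCGG in 5 windows, of 4 genes, against 35.7%. Counting the start as 0, Fasn had CCAAT matches at -90 to -86, -62 to -58 and -59 to -55, and the last 2 overlap in opposite orientations. The sterol regulatory element TCACNCCAC, present in 1.24% of all windows, and the E-box CACGTG, in 7.15%, each matched 1 window, both of Mlxipl. TATAAA, in 13.6% of windows, matched Acacb alone. Neither the carbohydrate response element (ChoRE, 0.046% of windows), a pair of E-box-like sites, nor the DR4 direct repeat bound by thyroid hormone and liver X receptors (0.015%) matched any of the 13. The Acaca window printed had none of the 7 motifs. It lies inside the gene, which GENCODE starts at 84129672, and the bases before that start were not searched. A match is a description of letters and not a bound site.

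Libraries held 12217623 to 36511893 counts, and the members were deeply counted, from 836 counts (Me1) to 2116211 counts (Scd1) in a library. All 10 brown adipocyte markers were counted in every mouse, with a summed level of 11604 to 52641 CPM (counts relative to the size of the library). The 8 skeletal muscle markers varied far more between mice, from 0.870 CPM to 129152 CPM summed, and the largest of these values came from a control mouse at 5 d. Summed endothelial markers (5 genes) ran from 151 to 1145 CPM and lymphocyte markers (5 genes) from 0.949 to 65.5 CPM. In bulk tissue, fewer cells of a type and less RNA per cell cannot be told apart. Expression below is log2 CPM with scaling between libraries by the TMM method, and a gene is said to be called, or to have risen or fallen, where its Benjamini-Hochberg adjusted p over all 17079 genes, from edgeR's quasi-likelihood test, was under 0.05.

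Levels between genes were compared only per kilobase of exon (RPKM, the CPM without TMM scaling divided by the exon length in kilobases). In control mice at 7 d, without hormone, Scd1 had the highest mean level at 6317 ± 2999 RPKM (SD, n = 5), followed by Thrsp at 3498 ± 631, Fasn at 1117 ± 256 and Acly at 694 ± 304. Elovl6 came next at 193 ± 83.6 RPKM, then Me1 at 164 ± 66.5, Acacb at 112 ± 41.6, Mlxipl at 82.8 ± 31.1, Acaca at 77.9 ± 18.8 and Srebf1 at 42.1 ± 15.3. Neighbours whose mean ± SD ranges met were Scd1 and Thrsp, Fasn and Acly, and the run from Elovl6 to Acaca, so their order is not resolved.

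**Figure D1:**
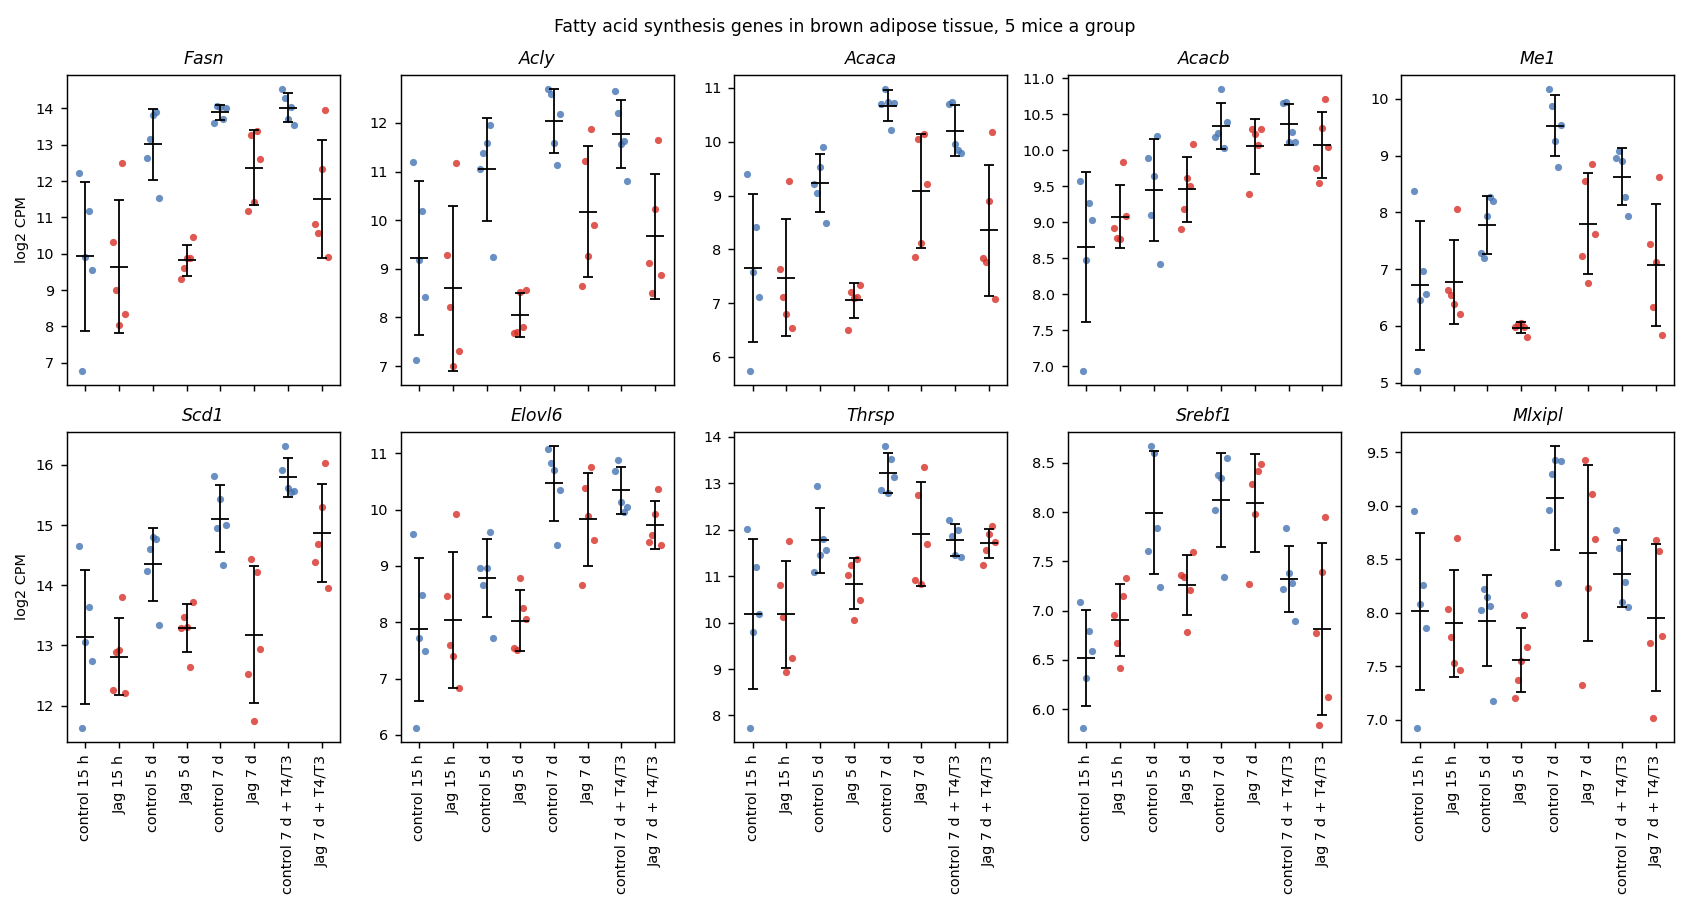
Level of each of the 10 genes (log2 CPM, vertical axis) in the 8 groups (horizontal axis), with 1 point per mouse and bars for the mean and SD. At 5 d the Fasn, Acly, Acaca and Me1 points of the Jag antibody mice all lie below those of the control mice.

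At 15 h both groups spread widely for Fasn, with an SD of 2.05 log2 CPM in control and 1.82 in Jag antibody mice. Fasn, the synthase itself, was at 12.21, 6.79, 9.90, 11.18 and 9.55 log2 CPM in control mice 1 to 5 and at 10.32, 9.01, 8.05, 12.50 and 8.35 in Jag antibody mice 6 to 10. Control mouse 1 and Jag antibody mouse 9 were the highest of their groups and control mouse 2 the lowest of all, and the groups overlapped. Of the 10 genes 0 were called at 15 h, where 1.14% of all genes were called in either direction. By edgeR's unadjusted p, 0 members were under 0.05, and DESeq2 and limma also called 0. Their log2 fold changes ran from -0.54 (Scd1) to 0.36 (Srebf1), with a median of -0.15 beside -0.04 over all genes. Their signs depended on single mice: without control mouse 1 all 10 were above 0, from 0.0016 (Scd1) to 0.81 (Elovl6) with Fasn at 0.66, and without control mouse 2 Scd1 was at -0.77 and Fasn at -0.41. Summed brown adipocyte markers were at 11604 to 25086 CPM in control and 26713 to 31704 CPM in Jag antibody mice, without overlap. Summed myeloid markers were at 307 to 8009 CPM and 290 to 574 CPM. The part of these cells in the member values at 15 h was not tested.

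At 5 d the genes that make palmitate fell under the Jag antibodies. Of the 10 members 4 fell, Fasn, Acly, Acaca and Me1, and 0 rose, where 5.93% of all genes fell and 8.02% were called in either direction. The same 4 were the members whose groups did not overlap, as did 3.16% of all genes in the lower direction. All 10 fold changes were below 0, with a median of -1.06 beside 0.04 over all genes.

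Acly, which makes cytosolic acetyl-CoA, was at 11.05, 11.39, 11.59, 11.96 and 9.25 log2 CPM in control mice and at 7.68, 7.70, 8.53, 7.81 and 8.56 in Jag antibody mice. Every Jag antibody mouse was below control mouse 5, the lowest control, and the gene fell 9.01-fold (log2 fold change -3.17, SE 0.77, edgeR adjusted p = 0.0116). Acaca, which makes the malonyl-CoA, was at 9.21, 9.04, 9.52, 9.91 and 8.48 in control mice against 6.50, 7.21, 7.10, 7.11 and 7.34 in Jag antibody mice. That was a 4.71-fold fall without overlap (log2 fold change -2.23, SE 0.57, edgeR adjusted p = 0.0143).

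Fasn showed the largest difference of the 10 genes at 5 d. Its levels were 12.63, 13.15, 13.82, 13.91 and 11.54 log2 CPM in control mice and 9.30, 9.60, 9.87, 9.88 and 10.46 in Jag antibody mice, a 10.3-fold fall (log2 fold change -3.36, SE 0.81, edgeR adjusted p = 0.0111). Control mouse 5 was again the lowest control and still above every Jag antibody mouse. Me1, which yields NADPH, was at 7.28, 7.20, 7.94, 8.27 and 8.20 in control mice and at 5.97, 6.04, 6.05, 5.99 and 5.81 in Jag antibody mice. The 5 Jag antibody mice lay within a narrow band, with an SD of 0.10 against 0.51 in control mice, and Me1 fell 3.67-fold (log2 fold change -1.87, SE 0.48, edgeR adjusted p = 0.0151).

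Scd1 and Elovl6, which modify palmitate, were not called at 5 d. Scd1, the desaturase, was at 14.24, 14.60, 14.80, 14.76 and 13.33 log2 CPM in control mice and at 13.29, 13.47, 13.30, 12.64 and 13.72 in Jag antibody mice (log2 fold change -1.11, SE 0.46, edgeR adjusted p = 0.131). The groups overlapped through control mouse 5, which was below Jag antibody mice 7 and 10. Elovl6, the elongase, had a log2 fold change of -0.79 (SE 0.49, edgeR adjusted p = 0.345) with overlapping groups. The reads were 50 bases long, and Scd1 has a close copy in Scd2, so reads could be split between them.

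Among the regulators, Srebf1 was at 7.61, 8.67, 8.60, 7.84 and 7.25 log2 CPM in control mice and at 7.36, 7.34, 6.78, 7.21 and 7.60 in Jag antibody mice (log2 fold change -0.82, SE 0.32, edgeR adjusted p = 0.105). Control mice 2 and 3 were above all the others, and the other 3 control mice overlapped the Jag antibody mice or lay just above them. Thrsp had a log2 fold change of -1.01 (SE 0.53, edgeR adjusted p = 0.247) and Mlxipl one of -0.39 (SE 0.33, edgeR adjusted p = 0.517). Acacb, the mitochondrial carboxylase gene, was at 9.90, 9.09, 9.65, 10.19 and 8.41 in control mice and at 8.91, 9.18, 9.61, 9.50 and 10.09 in Jag antibody mice. Its difference was -0.06 (SE 0.33, edgeR adjusted p = 0.936) and changed sign in 5 of the alternative and leave-one-out fits.

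**Figure D2:**
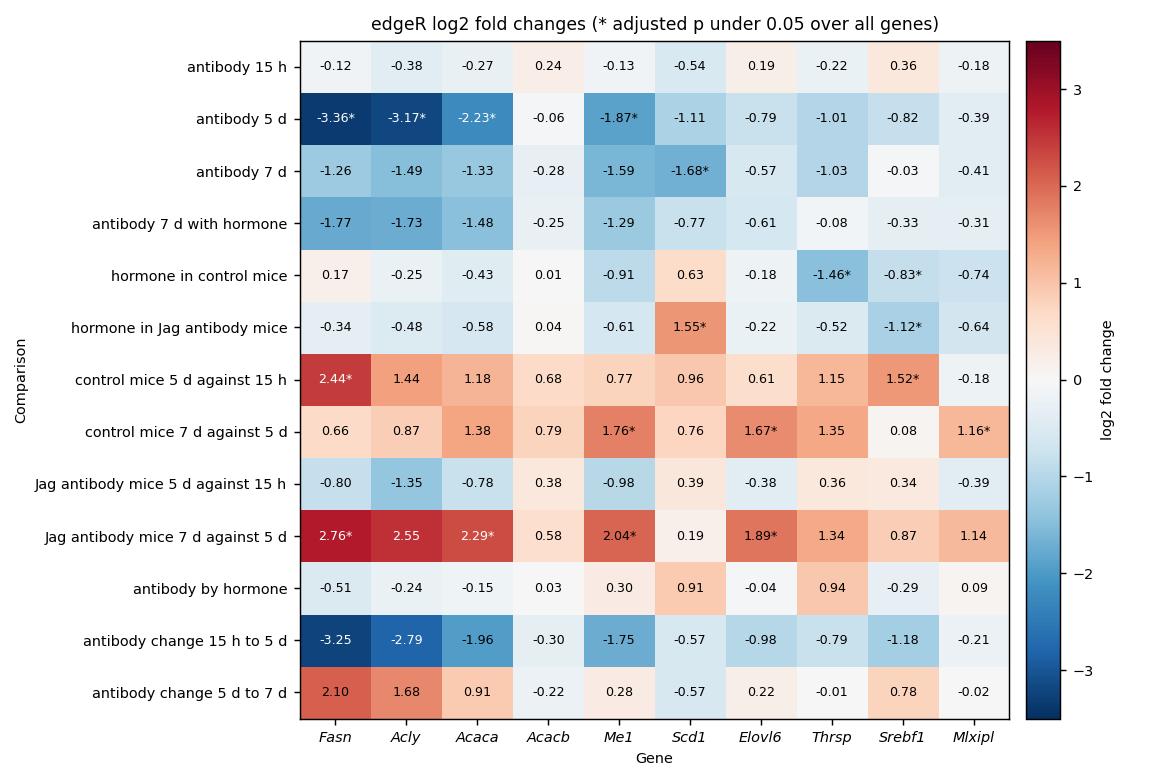
edgeR log2 fold change of each gene (columns) in the 10 comparisons of 2 groups and the 3 interactions (rows). An interaction is a difference between 2 antibody differences. Colour gives size and sign, and a star marks an adjusted p over all genes under 0.05. The row for the antibody at 5 d holds 4 stars, all below 0, and the rows for the antibody at 15 h and at 7 d with hormone hold 0.

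Muscle RNA moved with the groups at 5 d. All 8 muscle markers were counted in every control mouse, with a summed level of 918 to 129152 CPM, and in Jag antibody mice they summed to 0.870 to 44.3 CPM, with 4 of the 8 at 0 in some mice. With the muscle score (mean log2 CPM of these markers) as a covariate, the Fasn difference was -4.28 (edgeR adjusted p = 0.0186), that of Acly -4.17 (0.0119) and that of Acaca -2.92 (0.0241), while Me1, at -2.24, had an adjusted p of 0.0538. The 3 differences still called were larger with the covariate than without it, while over all genes 89 were called with it against 1369 without. Muscle scores did not overlap at 5 d, at 5.09 to 13.72 in control mice and -2.69 to 2.21 in Jag antibody mice. The slope of the covariate came from the fit of all libraries, so the adjusted differences are extrapolations. The part of muscle RNA in the falls was not tested. The 10 myeloid markers, 1 of them at 0 in some control mice, summed to 364 to 763 CPM in control and 173 to 761 CPM in Jag antibody mice. Brown adipocyte markers summed to 17567 to 35677 CPM in control and 21010 to 36404 CPM in Jag antibody mice.

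Other genes of the pathway were read from 4 lists with 35 genes in all, each tested. Of the 35, 4 fell and 0 rose at 5 d, where 5.93% of all genes fell and 8.02% were called in either direction. At 5 d, 3 of the 8 genes of substrate and NADPH supply fell: Slc25a1, the citrate carrier, by 1.97 on the log2 scale (SE 0.49, edgeR adjusted p = 0.0130), Acss2, which activates acetate, by 1.90 (SE 0.49, adjusted p = 0.0150), and Pgd of the pentose phosphate pathway by 1.63 (SE 0.36, adjusted p = 0.00711). Of the 8 further genes of elongation and desaturation 1 was called, Scd2, which fell by 2.34 (SE 0.72, adjusted p = 0.0388). Among the 13 regulators and the 6 genes of esterification, which joins fatty acids to glycerol, 0 were called at 5 d. Pgd was named beyond the rule of 3 genes per direction, after its value was seen.

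**Figure D3:**
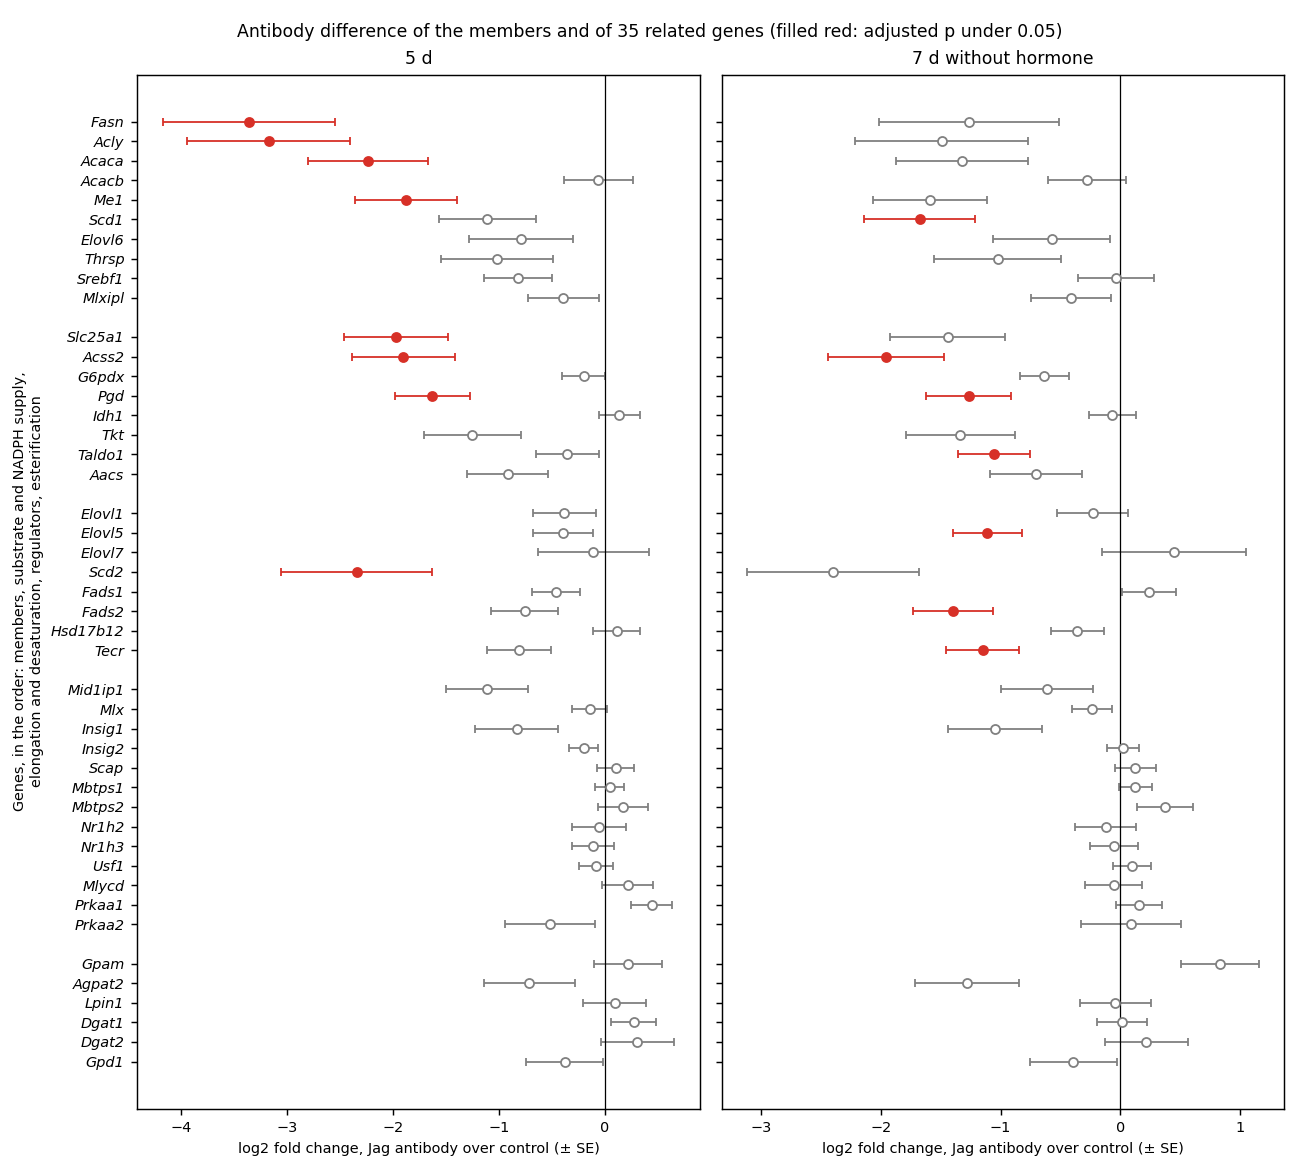
edgeR log2 fold change (horizontal axis, Jag antibody over control, bars are SE) of the 10 genes and of 35 related genes (vertical axis, grouped by list) at 5 d and at 7 d without hormone, filled red where the adjusted p was under 0.05. At 5 d the red points of the 10 genes are Fasn, Acly, Acaca and Me1, and at 7 d Scd1 alone.

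At 7 d without hormone Scd1 alone of the 10 fell, and 0 rose, where 1.29% of all genes fell and 2.5% were called in either direction. It was at 15.81, 14.95, 15.44, 14.33 and 15.00 log2 CPM in control mice and at 12.53, 14.44, 11.74, 14.21 and 12.95 in Jag antibody mice, a 3.20-fold fall (log2 fold change -1.68, SE 0.47, edgeR adjusted p = 0.0437). Jag antibody mouse 7 was above control mouse 4, so the groups overlapped. The call rested on single mice: 0 members were called without control mouse 1, 2 or 5 or without Jag antibody mouse 6, 8 or 10, and 2 without control mouse 3 or Jag antibody mouse 9.

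The synthesis genes were split among the Jag antibody mice at 7 d. Fasn was at 13.60, 14.07, 14.05, 13.70 and 14.01 log2 CPM in control mice and at 11.17, 13.27, 11.43, 13.38 and 12.62 in Jag antibody mice. Mice 7 and 9 came close to the control mice and mice 6 and 8 were lowest, yet no Jag antibody mouse reached a control mouse (log2 fold change -1.26, SE 0.75, edgeR adjusted p = 0.340). Acaca too was without overlap, at 10.69, 10.99, 10.74, 10.22 and 10.72 in control mice against 7.86, 10.06, 8.12, 10.14 and 9.21 (log2 fold change -1.33, SE 0.55, edgeR adjusted p = 0.174). Those were the 2 members without overlap at 7 d, a property of 1.6% of all genes in the lower direction.

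Me1 was at 10.18, 9.88, 9.26, 8.80 and 9.53 log2 CPM in control mice at 7 d and at 7.22, 8.56, 6.76, 8.85 and 7.63 in Jag antibody mice, with mouse 9 above control mouse 4 (log2 fold change -1.59, SE 0.47, edgeR adjusted p = 0.0613). Acly differed by -1.49 (SE 0.72, edgeR adjusted p = 0.236) and Thrsp by -1.03 (SE 0.53, edgeR adjusted p = 0.264). Mice 7 and 9 were the highest Jag antibody mice for Acly, Me1, Scd1, Elovl6, Thrsp and Mlxipl as well. Jag antibody mouse 6 had the highest muscle score (12.35) and the lowest brown adipocyte score (9.20) of its group. Mouse 8 was at 2.26 and 10.22. The part of tissue content in the split was not tested. The median of the 10 differences was -1.14 beside 0.05 over all genes.

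Of the 35 related genes 6 fell and 0 rose at 7 d, where 1.29% of all genes fell and 2.5% were called in either direction. In substrate and NADPH supply 3 of 8 fell: Acss2 by 1.96 on the log2 scale (SE 0.49, edgeR adjusted p = 0.0254), Pgd by 1.27 (SE 0.35, adjusted p = 0.0454) and Taldo1, another gene of the pentose phosphate pathway, by 1.05 (SE 0.30, adjusted p = 0.0496). In elongation and desaturation 3 of 8 fell: Fads2, the delta-6 desaturase, by 1.40 (SE 0.33, adjusted p = 0.0192), Tecr by 1.15 (SE 0.31, adjusted p = 0.0361) and Elovl5 by 1.11 (SE 0.29, adjusted p = 0.0315). Tecr completes each round of elongation and Elovl5 lengthens polyunsaturated fatty acids. Taldo1, Tecr and Elovl5 were named beyond the rule, after their values were seen. Among regulators and esterification 0 were called.

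With hormone, 0 of the 10 genes were called between Jag antibody and control mice at 7 d, where 1.14% of all genes were called. By edgeR's unadjusted p 4 were under 0.05, DESeq2 called 0 and limma 2. Fasn was at 14.54, 14.27, 13.72, 14.04 and 13.54 log2 CPM in hormone-treated control mice and at 10.81, 10.57, 12.33, 13.94 and 9.92 in hormone-treated Jag antibody mice (log2 fold change -1.77, SE 0.76, edgeR adjusted p = 0.322). Mice 6, 7, 8 and 10 were below every control mouse, and mouse 9 lay within the control range.

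The same mouse 9 lay within the control range for Acly, Acaca, Me1 and Scd1, whose log2 fold changes were -1.73 (SE 0.73), -1.48 (SE 0.55), -1.29 (SE 0.47) and -0.77 (SE 0.46). Without it 2 members were called, Acaca at -2.22 (edgeR adjusted p = 0.0361) and Me1 at -1.88 (adjusted p = 0.0364), and Fasn was at -2.86 (adjusted p = 0.0626). With all 5 mice the median of the 10 members was -0.69 beside -0.02 over all genes. Fads2 was the 1 gene of the 35 called, beside 1.14% of all genes, and fell by 1.37 on the log2 scale (SE 0.32, edgeR adjusted p = 0.0232).

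**Figure D4:**
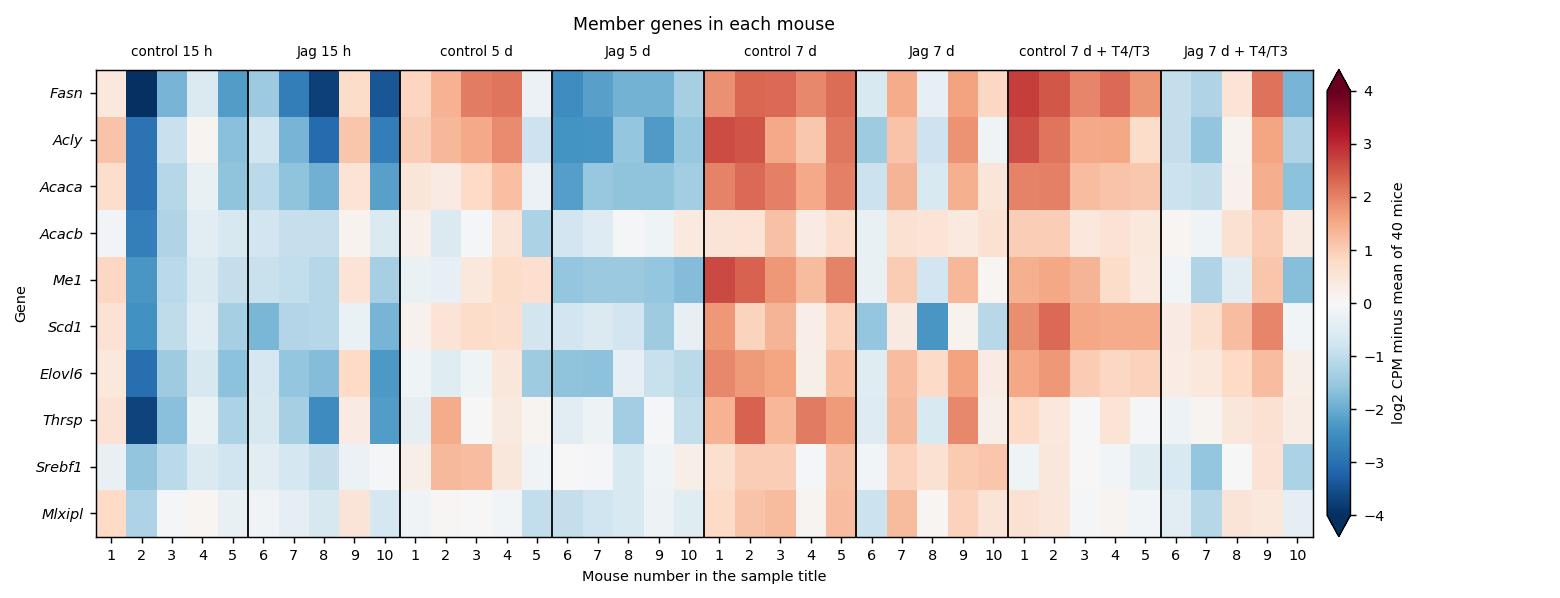
Each gene (rows) in each of the 40 mice (columns, by group and title number), coloured by log2 CPM minus its mean over all mice. Hormone-treated Jag antibody mouse 9 and Jag antibody mice 7 and 9 at 7 d are coloured close to control mice of the same day in the Fasn, Acly and Acaca rows.

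With thyroid hormone 2 of the 10 genes fell in control mice at 7 d, Thrsp and Srebf1, and 0 rose, where 22.9% of all genes fell and 43.2% were called in either direction. The members were thus called no more often than all genes. Thrsp was at 12.85, 13.81, 12.79, 13.53 and 13.14 log2 CPM without hormone and at 12.21, 11.86, 11.46, 12.00 and 11.40 with it. All 5 treated mice were below all 5 untreated mice, as in 15.2% of all genes in that direction, and the fall was 2.75-fold (log2 fold change -1.46, SE 0.53, edgeR adjusted p = 0.0261). Srebf1 was at 8.02, 8.38, 8.35, 7.34 and 8.55 without hormone and at 7.22, 7.84, 7.38, 7.28 and 6.90 with it, a 1.78-fold fall with overlap through untreated mouse 4 (log2 fold change -0.83, SE 0.32, edgeR adjusted p = 0.0332).

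The other members differed by less or were not called with hormone in control mice. Me1 differed by -0.91 (SE 0.47, edgeR adjusted p = 0.113) and Mlxipl by -0.74 (SE 0.34, edgeR adjusted p = 0.0725), while Scd1 was at 0.63 (SE 0.45, edgeR adjusted p = 0.265). The median was -0.34 beside 0.04 over all genes. Leaving out control mouse 2 without hormone, or mouse 3 or 5 with it, left 0 members called. Thrsp was also not called without untreated mouse 4, nor Srebf1 without untreated mouse 3 or 5 or treated mouse 1 or 4.

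Marker scores, each the mean log2 CPM of a list, moved with the hormone. The brown adipocyte score was 9.94 to 10.72 in untreated and 8.54 to 9.25 in treated control mice, and the myeloid score 1.12 to 3.00 and 3.26 to 4.43, both without overlap. None of these markers was at 0 in all mice of a group. Of the 10 brown adipocyte markers 6 were called lower with hormone. Elovl3, an elongase gene in that list, had a mean of 8.43 log2 CPM without and 4.53 with hormone. With the brown adipocyte score as a covariate, the differences of Thrsp, Me1 and Mlxipl changed sign, to 0.87, 0.25 and 0.23, and that of Srebf1 was -0.30 (edgeR adjusted p = 0.638). With the myeloid score as a covariate Thrsp was at -0.60 (edgeR adjusted p = 0.329) and Srebf1 at -0.46 (adjusted p = 0.264). Neither score overlapped, and the slopes came from the fit of all libraries, so these adjusted differences and their signs are extrapolations. Summed endothelial markers were apart too, at 225 to 617 CPM without and 671 to 1085 CPM with hormone, and 3 of the 5 were called higher and 1 lower. The part of these cells in the hormone differences was not tested.

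In Jag antibody mice Scd1 rose and Srebf1 fell with hormone, 2 of the 10, where 4.29% of all genes rose and 5.21% fell, 9.5% in all. Scd1 was at 12.53, 14.44, 11.74, 14.21 and 12.95 log2 CPM without hormone and at 14.38, 14.69, 15.30, 16.03 and 13.95 with it. Treated mice 6 and 10 lay below untreated mouse 7, so the groups overlapped, and the rise was 2.92-fold (log2 fold change 1.55, SE 0.46, edgeR adjusted p = 0.0297). Srebf1 was at 7.27, 8.29, 7.98, 8.41 and 8.49 without and at 6.78, 5.84, 7.39, 7.95 and 6.12 with hormone, a 2.18-fold fall with overlap (log2 fold change -1.12, SE 0.32, edgeR adjusted p = 0.0224). Thrsp differed by -0.52 (SE 0.52, edgeR adjusted p = 0.544) and Me1 by -0.61 (SE 0.47, edgeR adjusted p = 0.405).

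Brown adipocyte and myeloid scores also differed in mean in the Jag antibody mice with hormone, at 9.15 and 3.90 against 9.89 and 2.48 without it. Here both overlapped. The brown adipocyte score was 9.20 to 10.22 without and 9.03 to 9.24 with hormone, and the myeloid score 1.66 to 3.10 and 2.95 to 4.62. With the brown adipocyte score as a covariate 1 member was called, and Srebf1 was at -0.81 (edgeR adjusted p = 0.134). With the myeloid score 1 was called and Srebf1 was at -0.81 too (adjusted p = 0.0886). The differences of Thrsp and Me1 changed sign with the brown adipocyte score, to 0.87 and 0.095, and that of Thrsp also with the myeloid score, to 0.24. Summed endothelial markers were at 325 to 628 CPM without and 681 to 1145 CPM with hormone, and 1 of the 5 was called higher. Whether these cells had a part in the differences was not tested.

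The calls in Jag antibody mice rested on single mice. Scd1 was not called without untreated mouse 6, 8 or 10 or treated mouse 8 or 9, and Srebf1 not without untreated mouse 9 or 10 or treated mouse 7 or 10, so that 0 members were called without untreated mouse 10. Without treated mouse 9 Scd1 was at 1.15 (edgeR adjusted p = 0.128), Me1 at -1.20 (adjusted p = 0.115) and Fasn at -1.43 (adjusted p = 0.249).

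Whether hormone altered the antibody difference was tested by the interaction, in which 0 of the 10 genes were called, 0 were under 0.05 by edgeR's unadjusted p, and DESeq2 and limma called 0. Of all genes 0.00586% were called. The interaction was 0.94 (SE 0.74, edgeR adjusted p = 0.562) for Thrsp, 0.91 (SE 0.64, adjusted p = 0.520) for Scd1 and -0.51 (SE 1.05, adjusted p = 0.844) for Fasn, on the log2 scale. Without hormone-treated Jag antibody mouse 9 it was 0.52 for Scd1 and -1.60 for Fasn, also not called.

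The related genes differed with hormone as well. In control mice 14 of the 35 fell, beside 22.9% of all genes, and 2 rose, beside 3463 of the 17079 genes tested. The largest falls were those of Agpat2, an acyltransferase of glycerolipid synthesis, at -2.27 (SE 0.45, edgeR adjusted p = 0.000198), Insig1, which retains the SREBP complex in the endoplasmic reticulum, at -1.97 (SE 0.40, adjusted p = 0.000248), and Slc25a1 at -1.91 (SE 0.49, adjusted p = 0.00221). Gpam, which starts glycerolipid synthesis, rose by 1.12 (SE 0.33, adjusted p = 0.00599) and Fads2 by 0.80 (SE 0.32, adjusted p = 0.0424). By list, 4 of 8 fell in substrate and NADPH supply, 2 of 8 in elongation and desaturation, 6 of 13 regulators and 2 of 6 in esterification.

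In Jag antibody mice given hormone 8 of the 35 related genes fell, beside 5.21% of all genes, and 0 rose. Slc25a1 was at -1.74 (SE 0.49, edgeR adjusted p = 0.0209), Insig1 at -1.62 (SE 0.40, adjusted p = 0.00833) and Agpat2 at -1.50 (SE 0.44, adjusted p = 0.0258). The falls comprised 1 gene of substrate and NADPH supply, 5 regulators and 2 of esterification.

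Levels also differed with the time of collection, which cannot be told apart from the day and handling of each group. The time comparisons share groups with each other and with the antibody comparisons, so each is given by its own values. From 15 h to 5 d, Fasn and Srebf1 rose in control mice and 0 members fell, where 16.2% of all genes rose and 36.4% were called in either direction. The count of members that rose was thus close to the share over all genes. Srebf1 was at 7.09, 5.81, 6.31, 6.79 and 6.59 log2 CPM at 15 h, with every mouse below the 5 d mice given above, as in 3.08% of all genes. Its rise was 2.87-fold (log2 fold change 1.52, SE 0.32, edgeR adjusted p = 0.000843).

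Fasn rose 5.44-fold over the same interval in control mice (log2 fold change 2.44, SE 0.78, edgeR adjusted p = 0.0155), with overlap through mouse 1 at 15 h. Acly differed by 1.44 (SE 0.72, edgeR adjusted p = 0.112) and Acaca by 1.18 (SE 0.55, edgeR adjusted p = 0.0879), and the median of the 10 was 1.06 beside -0.01. Control mouse 2 at 15 h had the lowest mean of the 10 genes of all mice, the highest myeloid score of its group (8.52) and the lowest brown adipocyte score of its group (7.37). Without it Fasn was at 2.18 (edgeR adjusted p = 0.0384). Without control mouse 1 of that group, the highest for Fasn, 9 of the 10 members rose. With the muscle score as a covariate 5 members were called, and with the myeloid score Fasn was at 1.64 (adjusted p = 0.116). The myeloid score had a mean of 4.98 at 15 h and 2.93 at 5 d, with 8 of its 10 markers called lower at 5 d, and the muscle score means of 2.46 and 9.95. The part of these cells was not tested.

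In Jag antibody mice 0 of the 10 genes were called from 15 h to 5 d, where 14.5% of all genes were called. By edgeR's unadjusted p 1 was under 0.05, and DESeq2 and limma called 0. Me1 was at 6.64, 6.54, 6.38, 8.07 and 6.22 log2 CPM at 15 h, above all 5 Jag antibody mice at 5 d, as in 6.34% of all genes (log2 fold change -0.98, SE 0.47, edgeR adjusted p = 0.148), and Acly differed by -1.35 (SE 0.72, edgeR adjusted p = 0.198). With the myeloid score as a covariate 5 members were called. That score did not overlap, at 3.18 to 5.02 at 15 h and 1.66 to 3.02 at 5 d, so those calls are extrapolations. The change of the antibody difference from 15 h to 5 d was -3.25 (SE 1.07, edgeR adjusted p = 0.157) for Fasn, -2.79 (SE 1.02, adjusted p = 0.201) for Acly and -1.96 (SE 0.77, adjusted p = 0.232) for Acaca. In that interaction 0 members were called against 0.0995% of all genes, 5 had an unadjusted edgeR p under 0.05, and DESeq2 and limma called 0.

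From 5 d to 7 d in control mice Me1, Elovl6 and Mlxipl rose and 0 members fell, where 4.71% of all genes rose and 9.13% were called in either direction. Me1 rose 3.39-fold without overlap (log2 fold change 1.76, SE 0.48, edgeR adjusted p = 0.0201). Mlxipl was at 8.02, 8.22, 8.15, 8.06 and 7.18 log2 CPM at 5 d and at 8.96, 9.30, 9.43, 8.27 and 9.41 at 7 d, a 2.24-fold rise with mouse 4 at 7 d just above the highest mouse at 5 d (log2 fold change 1.16, SE 0.34, edgeR adjusted p = 0.0278). Elovl6 was at 8.97, 8.66, 8.97, 9.60 and 7.72 at 5 d and at 11.07, 10.83, 10.71, 9.37 and 10.34 at 7 d, a 3.18-fold rise with overlap through mouse 4 of each day (log2 fold change 1.67, SE 0.50, edgeR adjusted p = 0.0327).

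Acaca, too, was without overlap between control mice of 5 d and 7 d (log2 fold change 1.38, SE 0.55, edgeR adjusted p = 0.103), so 3 members had no overlap, Acaca, Me1 and Mlxipl, beside 1.97% of all genes in that direction. The muscle score had a mean of 9.95 at 5 d and 3.42 at 7 d, the brown adipocyte score 9.38 and 10.30. With either as a covariate 0 of the 10 genes were called, with Me1 at 0.91 under the latter, and their part in the differences was not tested. The brown adipocyte score did not overlap, at 8.83 to 9.89 at 5 d and 9.94 to 10.72 at 7 d. Values adjusted for it are therefore extrapolations. Leaving out control mouse 3 at 5 d or mouse 2 at 7 d also left 0 called.

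In Jag antibody mice Fasn, Acaca, Me1 and Elovl6 rose from 5 d to 7 d and 0 members fell, where 2.01% of all genes rose and 3.29% were called in either direction. Fasn rose 6.78-fold (log2 fold change 2.76, SE 0.79, edgeR adjusted p = 0.0438), Acaca 4.89-fold (2.29, SE 0.57, adjusted p = 0.0218), Me1 4.12-fold (2.04, SE 0.48, adjusted p = 0.0160) and Elovl6 3.69-fold (1.89, SE 0.51, adjusted p = 0.0316). Acly, at 2.55 (SE 0.75, edgeR adjusted p = 0.0516), and Mlxipl, at 1.14 (SE 0.34, edgeR adjusted p = 0.0523), were not called. Fasn, Acly, Acaca and Me1 were without overlap, as were 2.11% of all genes in that direction. Without Jag antibody mouse 6 or 10 at 5 d, or mouse 7 or 9 at 7 d, 1 member was called, and Fasn was not called without any 1 of the 5 mice at 5 d or without mouse 7, 9 or 10 at 7 d. The muscle score had a mean of -0.12 at 5 d and 4.77 at 7 d, and the 8 muscle markers were higher at 7 d by a median of 9.75 on the log2 scale, with 8 of 8 at an unadjusted edgeR p under 0.05 and 0 called. With the muscle score as a covariate Fasn was at 3.15 (edgeR adjusted p = 0.0204), and Acaca, Me1 and Elovl6 were still called too. In the change of the antibody difference from 5 d to 7 d, 0 members were called by edgeR, DESeq2 or limma, 0 had an unadjusted edgeR p under 0.05, and 1.29% of all genes were called. It was 2.10 (SE 1.06, edgeR adjusted p = 0.313) for Fasn and 1.68 (SE 1.01, edgeR adjusted p = 0.416) for Acly.

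Related genes over time were counted in the same way. In control mice 17 of the 35 rose from 15 h to 5 d, beside 16.2% of all genes, and 2 fell, beside 3441 of the 17079 genes tested. Among the rises, Agpat2 was at 1.73 (SE 0.44, edgeR adjusted p = 0.00348), Acss2 at 1.63 (SE 0.48, adjusted p = 0.00954) and Aacs, which activates acetoacetate, at 1.59 (SE 0.39, adjusted p = 0.00276). Those that fell were Mbtps2, a protease that releases SREBP, at -0.60 (SE 0.23, adjusted p = 0.0424), and Prkaa1, a catalytic subunit of AMP kinase, at -0.52 (SE 0.19, adjusted p = 0.0321). From 5 d to 7 d 11 rose, beside 4.71% of all genes, and 0 fell, led by Agpat2 at 1.58 (SE 0.44, adjusted p = 0.0221), Taldo1 at 1.36 (SE 0.30, adjusted p = 0.00668) and Insig1 at 1.35 (SE 0.39, adjusted p = 0.0278).

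In Jag antibody mice 5 of the 35 rose from 15 h to 5 d, beside 8.22% of all genes, and 0 fell, led by Tecr at 0.96 (SE 0.30, edgeR adjusted p = 0.0323), Nr1h2, the liver X receptor beta, at 0.84 (SE 0.26, adjusted p = 0.0277) and Dgat1, which completes triglycerides, at 0.82 (SE 0.21, adjusted p = 0.0103). From 5 d to 7 d 4 rose, beside 2.01% of all genes, led by Slc25a1 at 1.88 (SE 0.49, adjusted p = 0.0277), Mid1ip1, a relative of Thrsp, at 1.70 (SE 0.39, adjusted p = 0.0139) and Pgd at 1.54 (SE 0.36, adjusted p = 0.0137). Of the 35, 1 fell, beside 219 of the 17079 genes tested: Fads2, by 1.26 (SE 0.33, edgeR adjusted p = 0.0281). At 15 h 1 of the 35 was called between antibodies, beside 1.14% of all genes. It was Mlx, the partner of ChREBP, which was higher by 0.66 (SE 0.16, edgeR adjusted p = 0.0429).

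Across the 40 mice the 10 genes moved together to different degrees. Over the 45 pairs the Pearson correlation of log2 CPM ran from 0.38 (Scd1 with Srebf1) to 0.97 (Fasn with Acaca), with a median of 0.78. As deviations from group means, which removes the group differences, it ran from 0.47 to 0.96 with a median of 0.75. The mice share libraries and handling within a group, so these are descriptions. Acaca followed the mean of the 10 most closely (0.98) and Srebf1 least (0.70).

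Outside the 10, and among 12130 genes with a mean log2 CPM of at least 1, those most alike the mean of the members over the 40 mice were Pygl, liver-type glycogen phosphorylase, at a Pearson correlation of 0.97, Acss2 at 0.96, and Acot11, Sbk1, Tkt, Pnpla3, Gm47451 and Aacs, each at 0.93. Without the 2 mice farthest from the median of the member mean these were 0.96 for Pygl, 0.94 for Acss2 and 0.91 to 0.92 for the others. By deviations from group means those most alike included Pygl (0.94), Acss2 (0.93), Aacs (0.93), Slc2a5 (0.93), Slc25a1 (0.92), Sorcs2 (0.90) and Parm1 (0.90). Slc2a5 is the fructose transporter, Pnpla3 a lipid droplet protein and Tkt the transketolase of the pentose phosphate pathway. Acss2, Tkt, Aacs and Slc25a1 are also among the 35 related genes.

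Within groups the members varied with the marker scores. The correlation of deviations over the 40 mice with the myeloid score was below 0 for each of the 10, from -0.74 (Acacb) to -0.42 (Srebf1), and with the brown adipocyte score above 0 for each, from 0.36 (Srebf1) to 0.81 (Thrsp). For the muscle score it was -0.40 (Mlxipl) to -0.07 (Thrsp). The brown adipocyte list holds the elongase gene Elovl3, so its score is neither apart from lipid synthesis nor a measure of cells alone. All of these correlations include control mouse 2 at 15 h. Its myeloid score was 8.52 and its member mean -2.79, against group means of 4.98 and -1.01. Summed myeloid markers ran from 77.0 CPM in a control mouse at 7 d to 8009 CPM in a control mouse at 15 h.

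**Figure D5:**
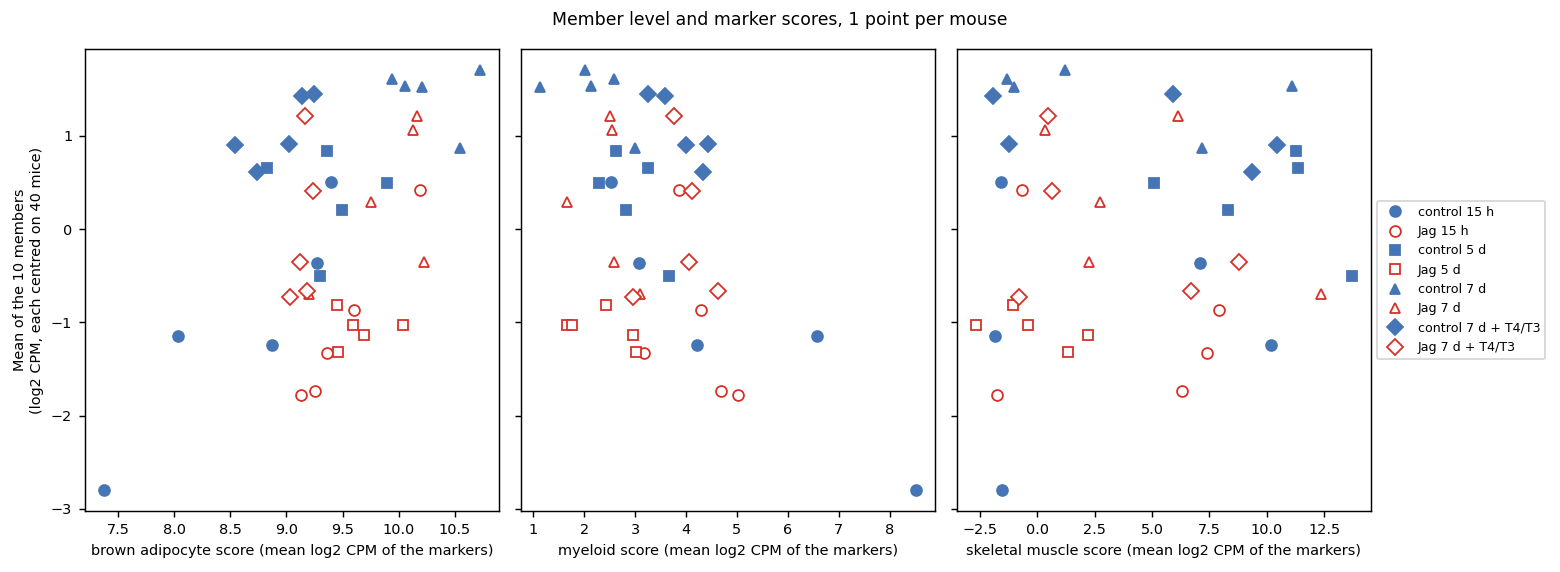
Mean of the 10 genes in each mouse (vertical axis, log2 CPM with each gene centred on its mean over 40 mice) against the brown adipocyte, myeloid and skeletal muscle scores (horizontal axes, mean log2 CPM of the markers), with symbols for the 8 groups. The control mouse at 15 h with the lowest member mean has the highest myeloid score of its group, at 8.52.

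Counting may blur a few of these genes. The annotated span of Srebf1 overlaps that of Rai1 on the opposite strand by 109 bases, and Rai1 held 18417 counts over all libraries against 160616 for Srebf1. Antisense genes overlap Me1, Elovl6 and Mlxipl, with 256, 3061 and 2244 counts against 214824, 638307 and 258655. Whether counting used the strand is not given in the sources used here, so reads of such pairs cannot be told apart where they overlap. On GRCm38 in the GENCODE M21 annotation, Fasn (chromosome 11, 120805846 to 120824547), Acly (chromosome 11, 100476353 to 100528000), Acaca (chromosome 11, 84129672 to 84401651) and Srebf1 (chromosome 11, 60199089 to 60222581) share a chromosome. Acacb (114146535 to 114250761) and Mlxipl (135089890 to 135138382) are on chromosome 5, Me1 on chromosome 9 (86581371 to 86695953), Scd1 on chromosome 19 (44394455 to 44407879), Elovl6 on chromosome 3 (129532355 to 129638495) and Thrsp on chromosome 7 (97412938 to 97417730).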

How the data were processed

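Brown adipose RNA of 40 mice was read as single-end 50-base reads, per the labels' protocols. The submitters' processing notes name GSNAP and limma, with no versions, and the genome build and the use of strand in counting are not given in the sources used here. The authors deposited raw counts per Ensembl gene and an FPKM table over the same mice. Each deposited FPKM value was a count scaled once for its library and once for its gene, and for 87.1% of the annotated genes among the 14290 counted in every library the gene's length was within 2% of proportional to the genomic span, introns included. Levels between genes were therefore computed from counts and exonic length.

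Symbols matched 52403 of the 52636 genes. Tests on counts used edgeR 4.0.16 (R 4.3.3) with genes kept by filterByExpr, TMM scaling, a robust quasi-likelihood fit of all 40 libraries with a mean for each of the 8 groups, and Benjamini-Hochberg adjustment over 17079 genes in each of 10 comparisons of 2 groups and 3 interactions, with a threshold of 0.05. Log2 CPM used a prior count of 2, and SE was taken from the F statistic. The method was tested on simulated data. Groups came from the labels, and mice are separate animals. Coordinates and exon lengths came from GENCODE M21 on GRCm38. Depth was 12217623 to 36511893 counts a library, so the spread between mice limits precision for these genes.

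All 10 members were named, and of the 4 lists of related genes up to 3 per direction and comparison with the largest called change. The 8 genes most alike were ranked by Pearson correlation with the mean of the members, each centred. A gene that this rule selected is not reported here. Marker lists were brown adipocyte, skeletal muscle, myeloid, endothelial and lymphocyte genes. The brown adipocyte list was Ucp1, Cidea, Dio2, Ppargc1a, Elovl3, Cox8b, Pparg, Fabp4, Adipoq and Plin1. The members, lists and rules were chosen with earlier results of these data known.

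Alternatives were no low-count filter, RLE size factors, a covariate for the muscle score, a separate fit of each comparison's own groups, length and GC trends as offsets, DESeq2 1.42.0, limma 3.58.1 on log2(FPKM + 1), the replicate number as a block, alone or with the offsets, and leaving out each mouse. The brown adipocyte and myeloid scores as covariates were added after seeing the data.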

Additional observations from a re-analysis of the deposited data

Results flagged for a closer look

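In 4 of the 80 sets of 5 mice (10 genes in 8 groups) the lowest or highest mouse stood apart, its gap to the nearest mouse being over 0.71 of the range of the group. Chance gives about 4 in 80. Acaca was lowest in Jag antibody mouse 6 at 5 d, at 6.50 log2 CPM with the nearest mouse at 7.10. Acacb was lowest in Jag antibody mouse 6 at 7 d, at 9.39 with the nearest at 10.07, and that mouse had a muscle score of 12.35, the highest of its group. Me1 was highest in Jag antibody mouse 9 at 15 h, at 8.07 with the nearest at 6.64. Mlxipl was lowest in control mouse 5 at 5 d, at 7.18 with the nearest at 8.02, and its muscle score of 13.72 was the highest of its group.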

How the results depend on the processing

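For the antibody at 5 d, Fasn, Acly and Acaca were called under all 9 alternatives and Me1 under all but the muscle score. With the muscle score 3 members were called, by extrapolation, since that score did not overlap between the groups. With the brown adipocyte score 5 were called. Leaving out each mouse gave 4 to 5, with Fasn between -3.64 and -3.13. RLE size factors moved no count of members called, nor did length and GC offsets alone. Elsewhere counts of members called moved by over 1.5 times, and the cause was not tested. With no low-count filter, 0 were called for the antibody at 7 d, 0 for hormone in control mice, 0 for control mice from 5 d to 7 d and 1 for Jag antibody mice from 5 d to 7 d. Fitting only the groups compared gave 0 for the antibody at 7 d, 4 for hormone in control mice, 0 for hormone in Jag antibody mice, 0 for control mice and 1 for Jag antibody mice from 15 h to 5 d. The muscle score as a covariate gave 5 for control mice from 15 h to 5 d and 0 from 5 d to 7 d. The brown adipocyte score gave 1 for the antibody at 7 d with hormone, 0 and 1 for hormone in control and Jag antibody mice, and 0 for control mice from 5 d to 7 d. For hormone in control mice and for control mice from 5 d to 7 d it did not overlap, so those counts are extrapolations. The myeloid score gave 2 for the antibody at 7 d, 1 for hormone in Jag antibody mice, and 1 and 5 for control and Jag antibody mice from 15 h to 5 d. The 5 are an extrapolation for the same reason. limma gave 3 for the antibody at 7 d, 2 for it with hormone, 6 for control mice from 15 h to 5 d and 1 for Jag antibody mice from 5 d to 7 d, and DESeq2 gave 2 for the antibody at 7 d. Of the hormone differences given above with all mice, those that changed sign with covariates were Thrsp (0.87), Me1 (0.25) and Mlxipl (0.23) in control mice and Thrsp (0.87) and Me1 (0.095) in Jag antibody mice, by the brown adipocyte score, and Thrsp (0.24) in Jag antibody mice by the myeloid score. Those in control mice are extrapolations, since the score did not overlap there. Acacb at 5 d turned to 0.066 with length and GC offsets, to 0.0019 and 0.15 without control mouse 1 or 4, and to 0.059 and 0.013 without Jag antibody mouse 6 or 7, and leaving out single mice gave it -0.28 to 0.15.

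Leaving out each mouse gave 0 to 0 members called for the antibody at 15 h, 0 to 2 at 7 d and 0 to 2 at 7 d with hormone. It gave 0 to 2 for hormone in control mice, 0 to 2 in Jag antibody mice, 2 to 9 for control mice from 15 h to 5 d, 0 to 3 from 5 d to 7 d, 0 to 0 for Jag antibody mice from 15 h to 5 d, 1 to 6 from 5 d to 7 d, and 0 to 0 for each interaction. Over all genes, counts of calls moved by over 1.5 times in 66 of 135 alternative results. The antibody at 5 d gave 89 with the muscle score, 431 in a fit of its own groups and 2065 with DESeq2, against 1369, and control mice from 15 h to 5 d gave 0 in a fit of their own groups against 6214. Hormone in control mice gave 1344 with the brown adipocyte score, by extrapolation, against 7378.

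Mouse numbers are shared by groups of the same antibody, but same-numbered mice are different animals. Deviations of same-numbered mice had mean correlations of 0.0859 to 0.208 over the 6 pairs of groups, with single values down to -0.54, so the numbers were not taken as pairs, and in no pair of groups did every mouse correlate best with its own number. With the replicate block 4 members were called for control mice from 15 h to 5 d. The block also gave 2 and 2 for hormone in control and Jag antibody mice, 4 for control mice and 4 for Jag antibody mice from 5 d to 7 d, 0 for Jag antibody mice from 15 h to 5 d and 0 for each interaction. With length and GC offsets beside the block, 4 were called for hormone in control mice, 6 for control mice from 15 h to 5 d and 6 from 5 d to 7 d. Antibody comparisons share no number. Depth does not limit these genes, since the lowest count was 836, but 5 mice a group leave wide errors at 15 h, where the SD of Fasn in control mice was 2.05 log2 CPM.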
